A study of Homo sapiens with 8 samples.

Results

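A set of 10 genes named for their part in the switch between epithelial and mesenchymal cell states, 10 of the 23228 gene symbols counted, were followed through KDM1A knockout and LY500307 treatment of ES2 cells, a human ovarian cancer line. They were taken by symbol and are the cadherins CDH1, CDH2 and CDH11, the filament gene VIM, and the transcription factor genes SNAI1, SNAI2, ZEB1, ZEB2, TWIST1 and TWIST2. The study asked whether losing KDM1A, a histone lysine demethylase that works with the CoREST complex, alters what oestrogen receptor beta signalling does to ovarian cancer cells. RNA was sequenced from KDM1A knockout (KO) cells given LY500307, which activates oestrogen receptor beta, for 48 h at 5 µM, from KO cells given vehicle, from control cells given LY500307 and from control cells given vehicle, with 2 libraries in each of the 4 groups. The sources used here do not give how the knockout was made, where the edit lies or if the KO cells are 1 clone. They also do not say whether the 2 libraries of a group are separate cultures; p-values therefore cover only the spread between libraries, which may be technical.

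Cadherins are calcium-dependent adhesion receptors that join neighbouring cells and anchor to actin through catenins. E-cadherin (CDH1) holds epithelial sheets together, while N-cadherin (CDH2) and cadherin 11 (CDH11) are typical of mesenchymal and neural cells. Factors of the SNAIL, ZEB and TWIST families lower CDH1 transcription during epithelial to mesenchymal transition (EMT). SNAIL and ZEB proteins bind E-box sequences, and the N-terminal domain of SNAIL proteins is known to recruit KDM1A as a corepressor. Vimentin (VIM) forms the intermediate filaments of mesenchymal cells.

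Promoter sequence is shown for a gene that fell in the knockout comparison (CDH2) and a gene that rose at a very high level (VIM). E-box stretches are shown for ZEB1, which had the most windows of the 5 members with any. RefSeq promoter entries (GRCh38.p14) matched 5 of the 10 genes, with 12 windows for CDH2, VIM, ZEB1, ZEB2 and TWIST2; CDH1, CDH11, SNAI1, SNAI2 and TWIST1 were not matched. Each window's 250 bases before the start site were located in hg19 by exact match, and both strands were searched for the E-box letters CACCTG and CAGGTG and for the GC box letters GGGCGG and CCGCCC. In the lines for CDH2 (chr18:25757095-25757344, minus strand) and VIM (chr10:17269990-17270239, plus strand), capitals mark a GC box, a sequence that Sp1 family factors can bind.
CDH2 promoter: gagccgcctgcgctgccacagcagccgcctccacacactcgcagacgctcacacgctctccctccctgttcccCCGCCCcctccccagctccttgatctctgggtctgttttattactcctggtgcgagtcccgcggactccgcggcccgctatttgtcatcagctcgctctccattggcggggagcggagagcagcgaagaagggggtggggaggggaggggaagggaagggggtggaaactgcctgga
VIM promoter: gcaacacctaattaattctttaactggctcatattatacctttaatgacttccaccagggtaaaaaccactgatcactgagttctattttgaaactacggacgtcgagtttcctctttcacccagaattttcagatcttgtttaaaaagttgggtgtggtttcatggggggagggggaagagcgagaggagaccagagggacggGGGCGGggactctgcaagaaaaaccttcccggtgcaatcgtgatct
The CDH2 window shown was 66% G and C with 17 CpG dinucleotides and its GC box lay at position -177 from the start site. The VIM window was 46% G and C with 8 CpG dinucleotides and its GC box lay at -46. Neither of the windows shown held an E-box, and neither overlapped an annotated exon. A further CDH2 window (chr18:25616606-25616855, minus strand) is not shown. It was 42% G and C with 4 CpG dinucleotides and held no GC box and no E-box.

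Of the 12 windows, 7 belonged to ZEB1, and only 2 of those 7 held E-boxes, as did no window of another member. All 250 bases of each of these 2 windows lay in annotated exons. The E-boxes were at 3 places, and capitals mark them in the lines that follow. All are on the plus strand of chromosome 10, at chr10:31607277-31607306 (position -57 from its start site), chr10:31608048-31608077 (-85) and chr10:31607895-31607920 (-242).
ZEB1 E-box at -57: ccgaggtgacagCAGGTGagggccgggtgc
ZEB1 E-box at -85: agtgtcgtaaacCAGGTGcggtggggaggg
ZEB1 E-box at -242: ccccaccaCACCTGaggaaaactttt
Of 34943 RefSeq windows of the same length, 17.5% held such an E-box and 42.5% a GC box. The 2 of 12 member windows with an E-box are near the 17.5%. A GC box lay in the windows of VIM and TWIST2, the CDH2 window shown and most ZEB1 windows. The ZEB2 window held none. A match describes letters in a window and not a bound site.

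Values are counts scaled to a fixed total (counts per 1e6, CPM) relative to library totals scaled by the trimmed mean of M values, and differences are log2 fold changes from 1 edgeR quasi-likelihood model over all 8 libraries. A gene was called changed at a Benjamini-Hochberg adjusted p under 0.05 over 13498 genes tested. Library totals lay between 24348937 and 30131097 counts. The targeted gene KDM1A stood at 71.6 and 72.0 CPM in KO cells with LY500307, 75.6 and 77.8 CPM in KO cells with vehicle, 238 and 241 CPM in control cells with LY500307, and 219 and 220.0 CPM in control cells with vehicle. Its transcript in KO cells was thus at 34.9% of the level in control cells under vehicle, and counts over a whole gene do not show whether functional protein remains. The oestrogen receptor beta gene, ESR2, had 12, 10, 11 and 8 counts in total in the same order of groups. The second library of control cells with vehicle stood apart in epithelial genes, as described with CDH1.

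Lists of cell type markers were read as wholes, and in bulk RNA fewer cells of a type and less RNA per cell cannot be told apart. The 10 ovarian epithelial tumour markers summed to 715 to 718 CPM in KO cells with LY500307, 772 to 784 CPM in KO cells with vehicle, 899.7 to 917.5 CPM in control cells with LY500307, and 815 to 821 CPM in control cells with vehicle. KRT7, KRT18, ARID1A and MECOM made up most of this, PAX8 stood at 5.90 ± 0.216 CPM in KO cells and 1.98 ± 0.453 CPM in control cells with vehicle (SD, n = 2 each), and SOX17 and MUC16 had at most 2 counts in any group. The 12 fibroblast and mesothelial markers summed to 163 to 182 CPM in KO cells with LY500307, 253 to 256 CPM in KO cells with vehicle, 1117 to 1181 CPM in control cells with LY500307, and 1238 to 1296 CPM in control cells with vehicle, mostly from COL1A1. THY1, a surface protein of fibroblasts, had 4 counts in KO cells and 1570 in control cells with vehicle, FAP stood at 25.7 ± 0.841 CPM in KO cells and 8.53 ± 2.23 CPM in control cells with vehicle (SD, n = 2 each), and DCN had 0 counts in both. The 8 haematopoietic markers summed to 63.0 to 75.6 CPM in KO cells with LY500307, 63.7 to 64.3 CPM in KO cells with vehicle, 111 to 112 CPM in control cells with LY500307, and 96.9 to 100.4 CPM in control cells with vehicle; nearly all of it was CD68, a lysosomal protein gene, while the leucocyte gene PTPRC had at most 4 counts in a group and CD3E and HBB were at 0 throughout. The 6 endothelial markers summed to 2.89 to 3.81 CPM in KO cells with LY500307, 2.27 to 2.31 CPM in KO cells with vehicle, 2.20 to 2.46 CPM in control cells with LY500307, and 1.54 to 2.09 CPM in control cells with vehicle, mostly from KDR, with CLDN5 at 0 throughout. CDH5, the cadherin of endothelial junctions, was listed with the other cadherins and not here. It stood at 30.6 CPM in KO cells and 102 CPM in control cells, both with vehicle. The part of these markers in the results was not tested.

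Of the 9 members that could be tested, 7 changed with the knockout, and the ZEB pair moved in opposite directions. In KO cells with vehicle SNAI1, SNAI2, ZEB1 and VIM were higher than in control cells with vehicle, and CDH2, ZEB2 and TWIST1 were lower; TWIST2 and CDH1 did not pass the test. Of all genes tested, 64% were called in this comparison, 30.7% higher and 33.3% lower, so a count of 7 of 9 is near the background. The median absolute log2 fold change was 0.95 over the 9 members and 0.346 over all genes tested. The members were chosen with earlier results of these data known, so such medians are a description. For 7 of the 9 the KO and control libraries under vehicle did not overlap, against 81.3% of all genes tested; under LY500307 this held for 8 of 9, also against 81.3%. With LY500307 present the same 7 were called in the same direction, 4 higher and 3 lower, against 66.2% of all genes tested (32.6% higher and 33.6% lower), with median absolute changes of 0.87 and 0.35. Of all genes tested, 55.1% were called the same way under both treatments. CDH11 (chr16:64977656-65160015, minus strand, hg19) had 0 counts in all 8 libraries and was not tested; a count of 0 allows up to 0.1 to 0.128 CPM per library, taking 3 counts as the limit, for counting error only.

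**Figure D1:**
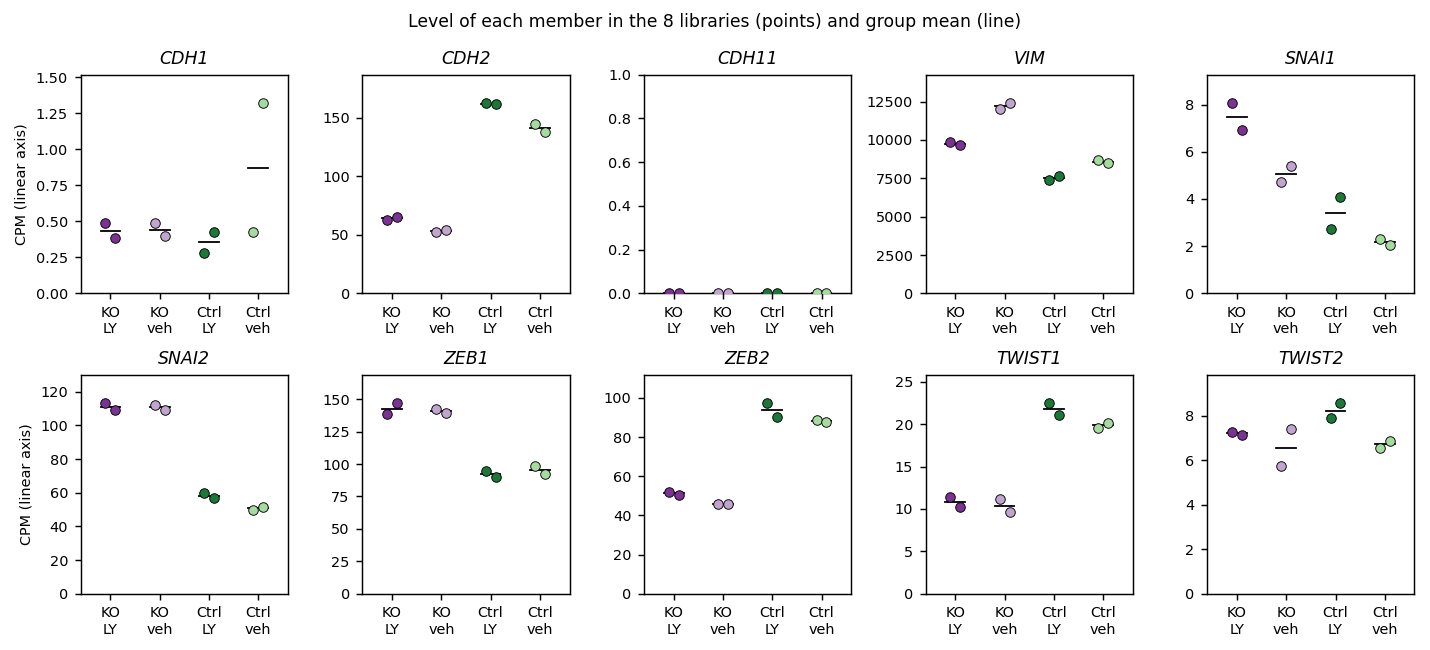
CPM of each of the 10 genes (linear axes starting at 0) in KO cells with LY500307 (KO LY), KO cells with vehicle (KO veh), control cells with LY500307 (Ctrl LY) and control cells with vehicle (Ctrl veh); points are the 2 libraries of a group and lines their mean. CDH2, ZEB2 and TWIST1 lie lower in all 4 KO libraries than in all 4 control libraries, SNAI1, SNAI2, ZEB1 and VIM lie higher, and 1 library of control cells with vehicle holds a CDH1 level of 1.32 CPM.

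CDH2, the main cadherin among the 3, fell by the largest amount of the members. It is annotated on the minus strand of chromosome 18 (chr18:25512843-25757910, hg19). Its level was 62.7 and 65.1 CPM in KO cells with LY500307, 52.5 and 54.4 CPM in KO cells with vehicle, 162 and 161 CPM in control cells with LY500307, and 145 and 138 CPM in control cells with vehicle. All 4 KO libraries lay below all 4 control libraries. Under vehicle the KO level was 37.8% of the control level (log2 fold change -1.40, SE 0.0561, edgeR adjusted p = 1.4e-21), and under LY500307 it was 39.5% (-1.34, SE 0.0546, edgeR adjusted p = 2.26e-21).

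CDH1 was nearly silent in these cells. The gene lies on the plus strand of chromosome 16 (chr16:68771195-68869440, hg19). It had 13 and 11 counts in KO cells with LY500307, 12 and 12 in KO cells with vehicle, 8 and 12 in control cells with LY500307, and 10 and 31 in control cells with vehicle. In CPM these were 0.487 and 0.384, 0.486 and 0.402, 0.280 and 0.428, and 0.426 and 1.32, in the same order. The other 7 libraries overlapped, and the eighth, replicate 2 of control cells with vehicle, had a 95% Poisson interval of 0.899 to 1.88 CPM that lay above the point value of every other library. The KO difference under vehicle was -0.98 (95% interval -1.98 to 0.01, edgeR adjusted p = 0.0781). Without that library it was 0.05 (edgeR adjusted p = 0.96), and without the other library of the same group it was -1.58 (edgeR adjusted p = 0.00763), the lone library then being assumed to vary like the other groups. Under LY500307, where neither of these libraries enters the difference, it was 0.30 (95% interval -0.85 to 1.44, edgeR adjusted p = 0.664).

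The same library was high for other epithelial genes. Replicate 2 of control cells with vehicle was the highest of the 8 libraries for 14 of 23 tested epithelial genes, 60.9%, against 13.8% of all genes tested. It was above replicate 1 for 20 of the 23, and the median log2 ratio between the 2 was 1.10, against 0.00 over all genes tested. The summed level of the 19 epithelial genes under 10 CPM was 41.5 CPM in it, and 21.8 to 27.9 CPM in the other 7 libraries. EPCAM, a surface protein of epithelial cells, stood at 2.13 CPM in it and 0.853 CPM in replicate 1, and the tight junction gene CLDN4 at 3.03 and 1.02 CPM. The source of these reads was not tested.

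**Figure D2:**
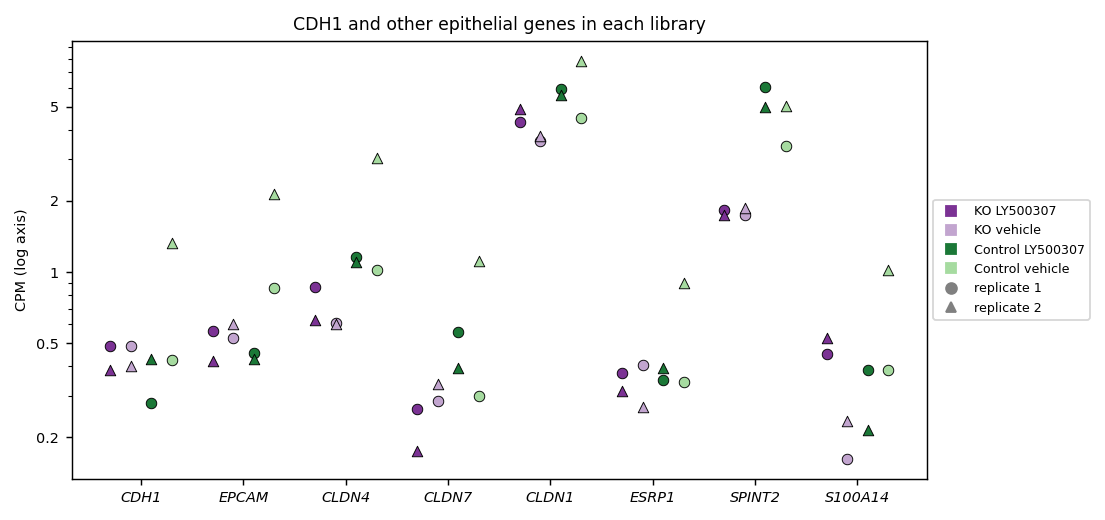
CPM (log axis) of CDH1 and 7 further epithelial genes in each library, by group (colour) and replicate (circle 1, triangle 2); the 7 were picked after their values were seen. For CDH1, EPCAM, CLDN4, CLDN7, CLDN1, ESRP1 and S100A14 the highest point is replicate 2 of control cells with vehicle, while SPINT2 is lower in all 4 KO libraries than in all 4 control libraries.

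VIM was the most abundant member and was higher in KO cells. It lies on the plus strand of chromosome 10 (chr10:17270240-17279592, hg19). It stood at 9873 and 9649 CPM in KO cells with LY500307, 12039 and 12399 CPM in KO cells with vehicle, 7383 and 7620 CPM in control cells with LY500307, and 8711 and 8465 CPM in control cells with vehicle. The KO libraries lay above the control libraries under either treatment, with no overlap. The rise was 1.42-fold under vehicle (log2 0.51, SE 0.0325, edgeR adjusted p = 1.01e-15) and 1.30-fold under LY500307 (log2 0.38, SE 0.0325, edgeR adjusted p = 2.12e-12).

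SNAI1 and SNAI2, which encode the zinc finger repressors SNAIL and SLUG, both rose. SNAI1 lies at chr20:48599517-48605423 on the plus strand and SNAI2 at chr8:49830157-49834299 on the minus strand (hg19). For SNAI1 the levels were 8.06 and 6.92 CPM in KO cells with LY500307, 4.70 and 5.39 CPM in KO cells with vehicle, 2.73 and 4.10 CPM in control cells with LY500307, and 2.30 and 2.05 CPM in control cells with vehicle. The groups did not overlap, and KO cells with LY500307 were highest. SNAI1 in KO cells was 2.32-fold the control level under vehicle (log2 1.22, SE 0.205, edgeR adjusted p = 3.8e-06) and 2.19-fold under LY500307 (log2 1.13, SE 0.172, edgeR adjusted p = 6.1e-07).

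SNAI2 carried most of the reads of this pair, between 93.3% and 96.2% of them in every library. It stood at 113 and 109 CPM in KO cells with LY500307, 112 and 109 CPM in KO cells with vehicle, 59.9 and 56.8 CPM in control cells with LY500307, and 50.0 and 51.5 CPM in control cells with vehicle. The 4 KO libraries were close to one another, and all lay above the control libraries. The KO level was 2.18-fold the control level under vehicle (log2 1.13, SE 0.0594, edgeR adjusted p = 4.72e-18) and 1.91-fold under LY500307 (log2 0.93, SE 0.0576, edgeR adjusted p = 4.25e-16).

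The ZEB pair, zinc finger and homeodomain repressors, split: ZEB1 rose and ZEB2 fell. ZEB1 lies at chr10:31607424-31818742 on the plus strand and ZEB2 at chr2:145121931-145278624 on the minus strand (hg19). ZEB1 stood at 139 and 147 CPM in KO cells with LY500307, 143 and 139 CPM in KO cells with vehicle, 94.7 and 89.9 CPM in control cells with LY500307, and 98.4 and 92.2 CPM in control cells with vehicle. ZEB2 stood at 51.9 and 50.6 CPM in KO cells with LY500307, 45.7 and 45.6 CPM in KO cells with vehicle, 97.2 and 90.3 CPM in control cells with LY500307, and 88.5 and 87.9 CPM in control cells with vehicle. The KO libraries lay above the control libraries for ZEB1 and below them for ZEB2, with no overlap. Under vehicle the differences were 0.56 for ZEB1 (SE 0.0544, edgeR adjusted p = 4.49e-11) and -0.95 for ZEB2 (SE 0.0619, edgeR adjusted p = 1.71e-15). Under LY500307 they were 0.63 for ZEB1 (SE 0.0538, edgeR adjusted p = 2.13e-12) and -0.87 for ZEB2 (SE 0.0604, edgeR adjusted p = 9.05e-15).

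Of the reads of both ZEB genes together, ZEB1 held 72.8% and 74.4% in KO cells with LY500307, 75.7% and 75.3% in KO cells with vehicle, 49.4% and 49.9% in control cells with LY500307, and 52.6% and 51.2% in control cells with vehicle. The pair thus stood near balance in read number in control cells, and ZEB1 held about 3 reads for each ZEB2 read in KO cells with vehicle (3.12 and 3.05). ZEB1-AS1, a noncoding RNA gene on the opposite strand whose exons share 396 bases with those of ZEB1, had 151 to 282 counts per library. Exons of most other members also overlap those of further genes, none of them among the counted symbols. ZEB2 shares 1299 bases with ZEB2-AS1 on the opposite strand and 2966 with AC009951.1 on the same strand. VIM shares 656 with VIM-AS1 on the opposite strand. How strand was handled in counting is unknown here, so reads of the shared bases cannot be told apart.

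TWIST1, a basic helix-loop-helix factor of mesoderm and neural crest, fell, while no change of its close relative TWIST2 passed the test. TWIST1 lies at chr7:19060614-19157259 on the minus strand and TWIST2 at chr2:239756673-239832230 on the plus strand (hg19). TWIST1 stood at 11.4 and 10.2 CPM in KO cells with LY500307, 11.1 and 9.64 CPM in KO cells with vehicle, 22.5 and 21.1 CPM in control cells with LY500307, and 19.6 and 20.2 CPM in control cells with vehicle. All 4 KO libraries lay below the control libraries. The KO level was 52.1% of the control level under vehicle (log2 -0.94, SE 0.105, edgeR adjusted p = 1.25e-09) and 49.7% under LY500307 (log2 -1.01, SE 0.101, edgeR adjusted p = 1.03e-10).

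TWIST2 stood at 7.27 and 7.16 CPM in KO cells with LY500307, 5.75 and 7.39 CPM in KO cells with vehicle, 7.90 and 8.56 CPM in control cells with LY500307, and 6.56 and 6.87 CPM in control cells with vehicle. The vehicle groups overlapped. Its KO difference was -0.02 under vehicle (95% interval -0.32 to 0.27, edgeR adjusted p = 0.906) and -0.19 under LY500307 (95% interval -0.47 to 0.09, edgeR adjusted p = 0.221). TWIST1 held 56.6% to 66.0% of the reads of the pair in KO libraries and 71.2% to 74.9% in control libraries.

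**Figure D3:**
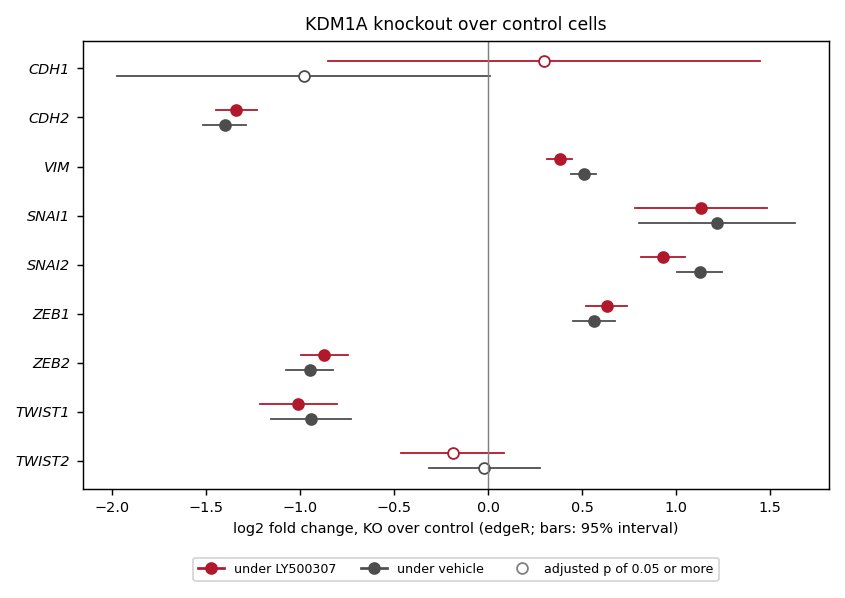
Log2 fold change of KO over control cells for the 9 tested genes under LY500307 (upper, red) and under vehicle (lower, grey), with 95% intervals from edgeR; open points have an adjusted p of 0.05 or more. CDH2 lies near -1.4 under both treatments, SNAI1 and SNAI2 near 1, and ZEB1 and ZEB2 on opposite sides of 0.

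Set per kilobase of each gene's canonical transcript, the order of the levels differed between the cell populations. The gene annotation used for counting is not known, so these lengths may not match the exons counted, and the order depends on them. In KO cells with vehicle VIM stood at 5673 CPM per kilobase, SNAI2 at 50.8, ZEB1 at 23.7, CDH2 at 13.3, TWIST2 at 7.29, TWIST1 at 6.37, ZEB2 at 4.93, SNAI1 at 2.96 and CDH1 at 0.0922. In control cells with vehicle VIM stood at 3987 CPM per kilobase, CDH2 at 35.2, SNAI2 at 23.3, ZEB1 at 16.1, TWIST1 at 12.2, ZEB2 at 9.52, TWIST2 at 7.45, SNAI1 at 1.28 and CDH1 at 0.182. CDH2 came next after VIM in control cells, and in KO cells SNAI2 and ZEB1 both stood above it. Of the neighbours in these orders, TWIST2 (SD 1.29) and TWIST1 (SD 0.653) in KO cells with vehicle did not differ beyond the spread of their 2 libraries.

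LY500307 moved fewer members and moved them less than the knockout. In control cells CDH2, SNAI1 and SNAI2 were higher and VIM was lower with LY500307 than with vehicle, 4 of 9 tested members against 26.3% of all genes tested (12.3% higher and 14% lower). In KO cells CDH2 and SNAI1 were higher and VIM was lower, 3 of 9 against 20.4% (9.16% higher and 11.3% lower). Median absolute log2 fold changes were 0.20 over members and 0.15 over all genes in control cells, and 0.13 and 0.14 in KO cells.

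VIM fell in both populations. The level fell by 0.32 on the log2 scale in KO cells (SE 0.0324, edgeR adjusted p = 4.22e-09) and by 0.20 in control cells (SE 0.0324, edgeR adjusted p = 2.87e-05), so that LY500307 and the knockout moved it in opposite directions. CDH2 rose by 0.26 in KO cells (SE 0.0579, edgeR adjusted p = 0.00136) and by 0.20 in control cells (SE 0.0521, edgeR adjusted p = 0.00539), also against the direction of the knockout. The call of CDH2 in control cells was lost without replicate 2 of control cells with vehicle (0.16, edgeR adjusted p = 0.0934).

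SNAI1 was higher with LY500307 by 0.56 in KO cells (SE 0.163, edgeR adjusted p = 0.0122) and by 0.65 in control cells (SE 0.217, edgeR adjusted p = 0.0259), the same direction as with the knockout. Both calls were weak: DESeq2 gave adjusted p = 0.0752 in KO cells and 0.068 in control cells. Leaving out replicate 1 of KO cells with vehicle or replicate 1 of KO cells with LY500307 gave edgeR adjusted p = 0.12 and 0.131 in KO cells. In control cells the call was lost without either vehicle library (edgeR adjusted p = 0.0601 without replicate 1 and 0.151 without replicate 2) and without replicate 2 of the LY500307 libraries, where the value was 0.32 (edgeR adjusted p = 0.421).

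SNAI2 was higher by 0.20 in control cells with LY500307 (SE 0.0613, edgeR adjusted p = 0.0141), a call lost without replicate 1 of control cells with vehicle (edgeR adjusted p = 0.102) or without replicate 1 of control cells with LY500307 (edgeR adjusted p = 0.144). In KO cells its difference was 0.01 (95% interval -0.11 to 0.12, edgeR adjusted p = 0.957). ZEB1, ZEB2, TWIST1 and TWIST2 were not called with LY500307 in either population, with differences between -0.05 and 0.29. For ZEB2 the LY500307 difference was 0.17 in KO cells (edgeR adjusted p = 0.0583) and 0.09 in control cells (edgeR adjusted p = 0.285), and scaling by library totals alone made both calls (0.23, edgeR adjusted p = 0.00864 in KO cells; 0.16, edgeR adjusted p = 0.0375 in control cells). CDH1 stood at -0.02 in KO cells and -1.30 in control cells (edgeR adjusted p = 0.0554), and the second value was -0.27 without the vehicle library that stood apart.

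**Figure D4:**
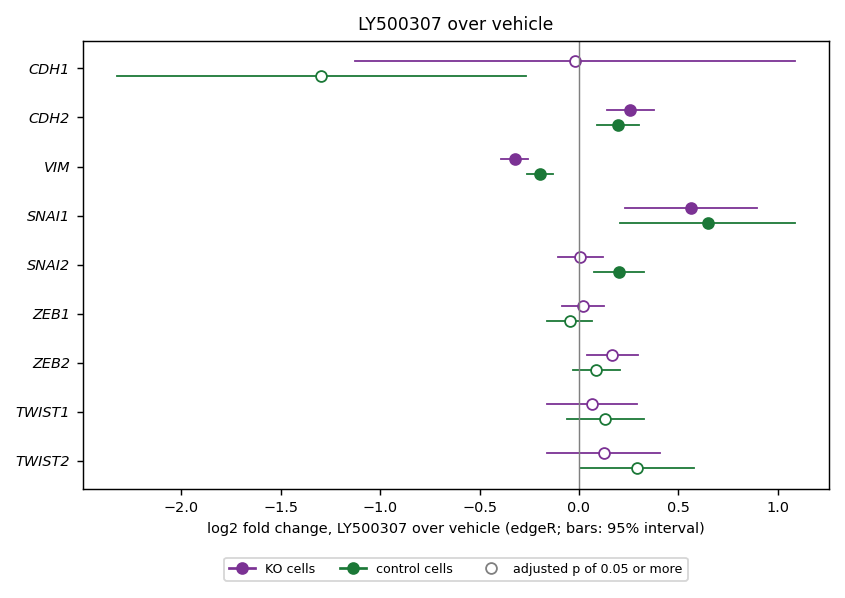
Log2 fold change of LY500307 over vehicle for the 9 tested genes in KO cells (upper, purple) and control cells (lower, green), with 95% intervals from edgeR; open points have an adjusted p of 0.05 or more. VIM lies below 0 and CDH2 and SNAI1 above 0 in both populations, and the interval of CDH1 in control cells reaches from -2.33 to -0.27.

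The difference of the LY500307 response between KO and control cells was tested directly as an interaction, in which a positive value means a higher response in KO cells. It was called for 0 of 9 members by edgeR and by DESeq2, against 1.62% of all genes tested by edgeR (0.526% higher and 1.09% lower). At an unadjusted p under 0.05 edgeR and DESeq2 each had 2 members, VIM and SNAI2. For VIM the interaction was -0.13 (95% interval -0.22 to -0.04, edgeR adjusted p = 0.157), and with no filter on low counts it was -0.14 (edgeR adjusted p = 0.0323). For SNAI2 it was -0.20 (95% interval -0.36 to -0.03, edgeR adjusted p = 0.254). Those of CDH2, ZEB1 and ZEB2 had intervals within -0.10 to 0.26, and CDH1's ran from -0.25 to 2.80.

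KO cells with LY500307 set against control cells with vehicle gave 7 called members, 4 higher and 3 lower, against 67.9% of all genes tested (33.1% higher and 34.8% lower). SNAI1 had the largest difference, 3.43-fold (log2 1.78, SE 0.194, edgeR adjusted p = 6.13e-10), followed by CDH2 at 45.2% of the control level (log2 -1.14, edgeR adjusted p = 2.85e-19) and SNAI2 at 2.19-fold (log2 1.13, edgeR adjusted p = 3.22e-18). VIM differed least among those called, 1.14-fold (log2 0.19, edgeR adjusted p = 6.28e-06). This comparison shares its libraries with those of each factor alone.

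Genes that work with the members moved in both directions in KO cells with vehicle; the lists were drawn up with earlier results of these libraries known. Their counts are to be read against the 30.7% of all genes tested that rose and the 33.3% that fell, and their medians against -0.01 over all genes. Of 20 other cadherins 9 were tested, 3 rose and 4 fell (median -0.59). CDH5, the cadherin of endothelial junctions, stood at 30.6 ± 0.0539 CPM in KO cells and 102 ± 1.57 CPM in control cells (SD, n = 2 each; log2 -1.74, edgeR adjusted p = 1.54e-21). CDH18 rose (22.0 ± 0.244 CPM in KO cells and 6.20 ± 0.147 CPM in control cells, SD, n = 2 each; log2 1.83, edgeR adjusted p = 2.5e-16). A pair of cadherins were almost confined to 1 population: CDH19 had 557 counts in KO cells and 2 in control cells (239-fold, 95% counting interval 65.9 to 1980), and CDH12 had 2 counts in KO cells and 318 in control cells (185-fold higher in control cells, interval 50.8 to 1530).

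Of 13 tested catenin and adherens junction genes 1 rose and 5 fell (median -0.27). The nectin genes PVRL1 (-1.64, edgeR adjusted p = 4.78e-17) and PVRL2 (-0.91, edgeR adjusted p = 3.55e-13) fell, as did VCL, which encodes the actin linker vinculin (-0.45), and MLLT4, which encodes afadin (-0.43). Of 23 tested epithelial genes 4 rose and 9 fell (median -0.74). The fallen genes were 4 without replicate 2 of control cells with vehicle and 15 without replicate 1; the risen ones were 2 without replicate 1 of those cells or without either library of KO cells with vehicle. DSG2, a desmosomal cadherin, fell (-3.74, edgeR adjusted p = 2.8e-21), as did the keratin genes KRT8 (-1.87) and KRT18 (-1.02), and KRT7 rose (0.50); each of these 4 stayed called without either replicate of control cells with vehicle. For EPCAM the difference was -1.39 with all libraries (edgeR adjusted p = 0.0037) and -0.58 without replicate 2 (edgeR adjusted p = 0.361).

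Of 16 tested EMT factors other than the members, with E-protein partners of TWIST proteins, 8 rose and 7 fell (median 0.14); 5 rose without replicate 2 of KO cells with vehicle. PRRX1, a homeobox factor of mesenchyme, fell (-1.95, edgeR adjusted p = 3.42e-25), as did HMGA2 (-1.48) and GATA6 (-2.07), and the E-protein gene TCF4 rose (1.34). Of 24 tested cofactors and regulators of SNAIL, ZEB and TWIST proteins 6 rose and 11 fell (median -0.09), with FBXW11 (-0.70), LOXL2 (-0.40) and EZH2 (-0.42) lower and DNMT1 (0.33) higher. The list of intermediate filament genes beside VIM held the linker gene PLEC and no keratin genes, which were listed as epithelial. Of its 8 tested genes 1 rose and 7 fell (median -0.59), so that most moved against VIM. They included NEFL, a neurofilament subunit (-2.74), INA (-0.99) and LMNB1, lamin B1 (-0.72), while PLEC, the filament linker plectin, rose (0.47).

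Of 21 tested mesenchymal surface and cytoskeletal genes 4 rose and 13 fell (median -0.61). The count of those that rose was 2 without replicate 1 of KO cells with vehicle, and likewise without either library of control cells with vehicle. FN1, which encodes fibronectin, stood at 890.1 ± 10.0 CPM in KO cells and 3422 ± 76.2 CPM in control cells (SD, n = 2 each; log2 -1.94, edgeR adjusted p = 2.12e-30). LOX (-1.31) and the growth factor receptor gene PDGFRA (-2.33) fell as well, and TNC, tenascin C, rose (1.38).

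Markers of cell types changed in both directions as well. Of 7 tested fibroblast and mesothelial markers 4 rose and 3 fell in KO cells with vehicle, with COL1A1 lower (-2.47, edgeR adjusted p = 4.44e-30) and FAP higher (1.59, edgeR adjusted p = 3.47e-14). Of 6 tested ovarian tumour markers 4 rose and 1 fell, with PAX8 (1.57) and MECOM (0.27) higher, KRT18 lower and ARID1A not called (-0.08). Of 2 tested haematopoietic markers CD68 fell (-0.67) and LYZ rose (2.67), the second with 120 counts in KO cells and 16 in control cells. Of 2 tested endothelial markers TEK rose, with 20 counts in KO cells and 2 in control cells (edgeR adjusted p = 0.00571), and KDR was at 0.20 (edgeR adjusted p = 0.555); with both factors together both were called higher.

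**Figure D5:**
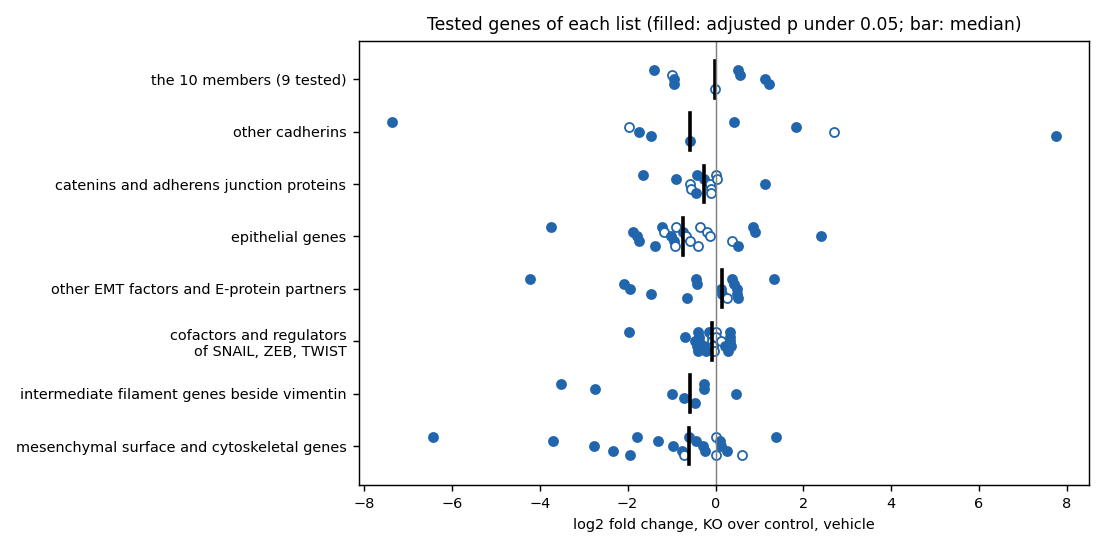
Log2 fold change of KO over control cells under vehicle for the tested genes of the 10 members and of 7 lists; filled points have an adjusted p under 0.05 and bars mark medians. The members spread from -1.40 to 1.22. The medians of epithelial genes (-0.74), mesenchymal genes (-0.61), intermediate filament genes (-0.59) and other cadherins (-0.59) lie below 0. Those of catenin and adherens junction genes (-0.27) and cofactors (-0.09) are nearer to it, and that of other EMT factors is 0.14.

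With LY500307 the same lists moved less, as did all genes tested, of which 9.16% rose and 11.3% fell in KO cells and 12.3% rose and 14% fell in control cells. Among 23 tested epithelial genes 0 rose and 3 fell in KO cells, including LSR (-0.84) and KRT18 (-0.17), and in control cells 2 rose and 4 fell, among them KRT7 higher (0.38, edgeR adjusted p = 6.88e-08) and EPCAM lower (-1.75, edgeR adjusted p = 0.0026). Without replicate 2 of control cells with vehicle 0 epithelial genes fell in control cells, without its replicate 1 there were 9, and without replicate 1 or 2 of control cells with LY500307 1 and 2 fell and 1 rose. In KO cells 1 epithelial gene fell without replicate 2 of the vehicle libraries. Of 21 tested mesenchymal genes 2 rose and 7 fell in KO cells, with TNC (-0.56) and FN1 (-0.37) lower. In control cells 5 rose and 4 fell, with TPM1 (0.33) and PDGFRA (0.38) higher; 3 rose without replicate 2 of control cells with vehicle, and 2 fell without its replicate 1 or without replicate 2 of control cells with LY500307. NEFL rose in KO cells (0.75) and in control cells (0.72), and CTNNB1, which encodes beta-catenin, fell slightly in KO cells (-0.15) and in control cells (-0.23).

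By the distance between group means of log2 CPM, each centred on the gene's own mean over the 4 groups, the genes nearest to CDH2 among 10168 candidates were TMTC4 (distance 0.0681), LYN (0.0736) and GRK5 (0.0902). LYN is a Src family tyrosine kinase. GRK5, a kinase of G protein-coupled receptors, stood at 13.6 ± 2.90 CPM in KO cells with LY500307, 12.2 ± 1.28 CPM in KO cells with vehicle, 35.4 ± 2.36 CPM in control cells with LY500307, and 30.2 ± 1.76 CPM in control cells with vehicle (SD, n = 2 each). Nearest to SNAI1 were FRRS1 (0.0979), SLC6A17 (0.123) and RPS6KL1 (0.148). The distance rests on 4 group means of the same 8 libraries and is a description.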

How the data were processed

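RNA from ES2 cells was sequenced in 8 libraries with single-end reads, per the labels' protocols, where a stranded kit for mRNA and a guide for total RNA both appear. The authors deposited raw counts of reads per gene symbol, for which the submitters' processing notes list hg19, TopHat2 2.0.8b, HTSeq and bcl2fastq. The sources used here do not give strand setting or gene annotation. The series text says that raw reads were combined, but 8 files were deposited, 1 for each library, and the libraries of a group varied beyond sampling noise (chi-square over degrees of freedom of 3.12 to 4.44), so all 8 were kept. Summary entries of the counter were left out: reads outside genes were 10.7% to 12.8% and ambiguous reads 0.812% to 0.861% of uniquely aligned reads, and not-unique alignments numbered 46.6 to 52.8 per 100 unique reads.

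Counts were analysed with edgeR 4.0.16 in R 4.3.3: filterByExpr kept 13498 of 23228 genes, library sizes were scaled by TMM, and a mean for each of 4 groups was fitted with 4 residual degrees of freedom. The model added 30.1 prior degrees of freedom from the spread of all genes. The edgeR p-values and intervals therefore rest largely on spread shared across genes. Each of 6 comparisons used the two-sided quasi-likelihood test with Benjamini-Hochberg adjustment over all genes tested. DESeq2 1.42.0, other scalings and filters, fits to the compared groups alone, a replicate block and leaving out each library were alternatives. Members and lists were chosen with earlier results of these data known. Named genes are the members, KDM1A, and, from each list, up to 4 genes by smallest p in KO against control under vehicle and up to 2 elsewhere; ESR2, EPCAM and CLDN4 and the genes plotted with CDH1 by library, and the cell type markers named, were added for values seen. Positions are from GENCODE release 44 lifted to GRCh37, and intervals cover counting error only where they are called counting or Poisson intervals.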

Additional observations from a re-analysis of the deposited data

How the results depend on the processing

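The 7 calls of KO against control, for CDH2, VIM, SNAI1, SNAI2, ZEB1, ZEB2 and TWIST1, held under every alternative run, with vehicle and with LY500307. Members called with a library left out were 7 to 8 for KO against control under vehicle, 7 throughout under LY500307, 7 to 8 for both factors together, 2 to 3 for LY500307 in KO cells, 2 to 4 for LY500307 in control cells and 0 throughout for the interaction, the lone library being assumed to vary like the other groups. Over all genes the counts then ran from 2160 to 3810 for LY500307 in control cells (3550 with all libraries), from 1422 to 2736 in KO cells (2759) and from 95 to 262 for the interaction (218). With no filter on low counts the interaction was called for 1 member, VIM, and 350 genes.

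Whether replicate numbers pair the samples is not known. By replicate number, deviations from group means correlated at -0.02 to 0.06 between groups over all genes tested. Low correlation over all genes cannot show that libraries of the same number were not handled together. With a replicate block the interaction was called for 1 member, VIM (-0.13, edgeR adjusted p = 0.0217), and for 643 genes, and ZEB2 was called higher with LY500307 in KO cells (0.17, edgeR adjusted p = 0.0244).

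Scaling by library totals alone raised the higher share of calls for LY500307 in KO cells to 70.6%, against 44.8% with TMM, in control cells to 73.7%, against 46.9%, and for both factors together to 58.9%, against 48.7%. It turned TWIST2 in KO cells with vehicle to 0.025, ZEB1 with LY500307 in control cells to 0.027 and CDH1 with LY500307 in KO cells to 0.039, and it called TWIST2 with LY500307 in control cells (0.37, edgeR adjusted p = 0.0491). SNAI2 with LY500307 in KO cells was -0.001 with DESeq2, with its size factors in edgeR and with no filter. In the fit to the compared groups alone CDH1 was called lower with LY500307 in control cells (-1.30, edgeR adjusted p = 0.048). None of these turned values belonged to a call.

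Leaving out a library turned the sign of uncalled values, with these ranges. For KO against control under vehicle CDH1 ran from -1.58 to 0.046 and TWIST2 from -0.23 to 0.14. For LY500307 in control cells ZEB1 ran from -0.093 to 0.001. For LY500307 in KO cells CDH1 ran from -0.21 to 0.14, TWIST2 from -0.037 to 0.33, SNAI2 from -0.029 to 0.027, TWIST1 from -0.041 to 0.17 and ZEB1 from -0.026 to 0.049. For both factors together CDH1 ran from -1.60 to 0.024. For the interaction TWIST1 ran from -0.17 to 0.033, SNAI1 from -0.35 to 0.24 and TWIST2 from -0.33 to 0.035. The causes were not tested. Of the member and KDM1A values recomputed, 827 kept direction and side of the threshold, 25 turned, 11 gained and 17 lost a call. Depth limits CDH1, with 8 to 31 counts per library, and CDH11, with 0. A filter of at least 1 CPM in 2 libraries left CDH1 untested, and a fit to the compared groups alone gives no interaction.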

Other observations

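Several genes of the lists answered LY500307 differently in KO and control cells. Of the members 0 of 9 passed that test, too few genes to set against a share of the lists. The interaction was called negative for 11 of 114 tested genes of the 7 lists (9.65%) and positive for 0. Over all 13498 genes tested 147 were negative (1.09%) and 71 positive (0.526%). The lists were drawn up with earlier results of these libraries known, so these shares are a description. Negative list genes were fewer without replicate 1 of control cells with vehicle (7), without replicate 2 of KO cells with vehicle (5) and without replicate 2 of control cells with LY500307 (4), and 8 to 11 without any other library, settings added after the count was seen; 1 list gene was positive with a replicate block and 1 without replicate 2 of KO cells with LY500307. FN1, the fibronectin gene, was at -0.37 (edgeR adjusted p = 4.66e-05): its level was 691 ± 23.9 CPM in KO cells with LY500307, 890.1 ± 10.0 CPM in KO cells with vehicle, 3430 ± 110 CPM in control cells with LY500307 and 3422 ± 76.2 CPM in control cells with vehicle (SD, n = 2 each). KRT7, a simple epithelial keratin, was at -0.42 (edgeR adjusted p = 6.53e-05) and KRT18 at -0.32 (edgeR adjusted p = 0.0047). LOXL3, a lysyl oxidase, was at -0.58 (edgeR adjusted p = 0.00496), its level being 24.4 and 25.5 CPM in KO cells with LY500307, 24.3 and 24.9 CPM in KO cells with vehicle, 30.8 and 32.9 CPM in control cells with LY500307 and 20.9 and 21.2 CPM in control cells with vehicle (lower and higher library). ID3, an inhibitor of helix-loop-helix factors, was at -0.62 (edgeR adjusted p = 0.0379). CDH13, the only one called of the 9 tested other cadherins, was at -0.35 (edgeR adjusted p = 0.00803). Its LY500307 difference was 0.15 in control cells and -0.21 in KO cells.

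Changes of some members stood among neighbours that moved the same way. Under vehicle the median KO difference of the 31 tested genes within 5 Mb of VIM was 0.32 and that of the 31 tested genes within 5 Mb of ZEB1, on the same chromosome, was 0.37, beside 0.51 for VIM and 0.56 for ZEB1. The members that moved against their surroundings were SNAI2 (1.13, with a median of -0.38 over 9 neighbours) and ZEB2 (-0.95, with a median of 0.57 over 8). Around CDH2 (22 neighbours, median -0.02) and SNAI1 (55 neighbours, median -0.01) the medians were near 0. For TWIST1 (-0.94) the median of 30 neighbours was -0.18. Under LY500307 the median was 0.20 around VIM, beside 0.38 for VIM, and 0.36 around ZEB1, beside 0.63 for ZEB1. What the neighbours share with the members was not tested.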
